A study of Mus musculus with 4 samples.

Results

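A set of 10 genes that are abundant in neutrophils were followed in RNA sequencing of mouse peritoneal macrophages, and they were 10 of the 13834 genes in the count table. They were S100a8, S100a9, Lcn2, Stfa2l1, Wfdc21, Retnlg, Prok2, Cxcr2, Csf3r and Tarm1, found by their gene symbols. They were chosen by their expression level, because several were highest in 1 sample, Dnmt1KO replicate 1, so the level in that sample and the difference between genotypes are given below as descriptions with no test. The study compared 2 Dnmt1fl/fl samples, whose Dnmt1 gene carries loxP sites on both alleles and is intact, with 2 Dnmt1KO samples, which carry the same floxed alleles together with a Cre driven by the LysM promoter. The labels call these genotypes wt and myeloid-specific Dnmt1 knockout. LysM is known to be active in neutrophils as well as macrophages. By the study's methods, mice of both genotypes were 10 weeks old and had received thioglycolate broth in the abdomen 3 days before the cells were washed out, which draws leukocytes into the cavity. The cells were spun down and cultured before RNA was extracted, the methods name no sort for macrophages, and the labels do not say whether each sample came from 1 mouse or a pool.

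Neutrophils are short-lived granulocytes that enter an inflamed peritoneum ahead of the monocytes that become macrophages. They are guided there by chemokines that bind Cxcr2, mature under the cytokine G-CSF through its receptor Csf3r, and fill their cytosol with the calcium-binding alarmins S100a8 and S100a9. Several of these transcripts are not exclusive to neutrophils: monocytes and macrophages can express Csf3r, Lcn2 and the alarmins. In bulk samples, fewer cells of a type and less RNA per cell cannot be told apart.

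The levels below are CPM, each gene's counts relative to the sample's total after scaling between samples by edgeR's TMM method. The samples held between 20228071 and 24198943 counts, TMM factors ran from 0.910 to 1.04, and 3 counts, the floor used here, correspond to 0.120 to 0.151 CPM. Genes with no count in some sample do not appear in the table. Dnmt1 itself was at 86.6 and 67.0 CPM in Dnmt1fl/fl replicates 1 and 2, and at 37.0 and 42.7 CPM in Dnmt1KO replicates 1 and 2, so both Dnmt1KO samples were below both controls, as in 8.56% of tested genes. Dnmt1KO replicate 1 stood apart from the other samples across the table: 38.8% of the 12542 genes that passed the filter on low counts were highest in it, and 23.5% were highest in it and second in Dnmt1fl/fl replicate 2. The macrophage identity of the samples was read from 12 markers, all of which were measured in every sample. Without the lysozyme gene Lyz2, their summed level was 9377 and 10327 CPM in Dnmt1fl/fl replicates 1 and 2, and 10110 and 9409 CPM in Dnmt1KO replicates 1 and 2. With Lyz2 it was 38908 and 38915 CPM in Dnmt1fl/fl, and 21461 and 25154 CPM in Dnmt1KO replicates 1 and 2. Defining neutrophil genes were measured in part. Of 46 further neutrophil gene symbols listed with the markers, 31 were in the table, with Il1f9 and Il36g naming the same gene and present as Il1f9, and Mpo, Elane, Camp, Ngp, Olfm4, Mrgpra2a and Mrgpra2b were not among its genes.

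The members fell into different patterns across samples, and upstream sequences from both main patterns are shown first, so that genes that moved together can be set side by side. RefSeq promoters (GRCm38.p6) matched 9 of the 10 genes and Wfdc21 had no entry. Shown are the 250 bases before the start of S100a9 and Stfa2l1, which were high in Dnmt1KO replicate 1 and Dnmt1fl/fl replicate 2, and of Retnlg and Prok2, which were high in Dnmt1KO replicate 1 and not in Dnmt1fl/fl replicate 2. Capitals mark matches on either strand to TTNCNNAA, a loose form of the sequence bound by C/EBP factors of the myeloid lineage.
S100a9 (chr3:90695722-90695971, minus strand): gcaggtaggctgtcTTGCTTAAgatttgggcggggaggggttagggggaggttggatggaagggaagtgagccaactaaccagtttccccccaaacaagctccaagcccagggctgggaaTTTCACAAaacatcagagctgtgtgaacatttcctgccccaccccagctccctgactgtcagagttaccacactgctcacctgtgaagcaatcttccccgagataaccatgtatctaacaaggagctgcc
Stfa2l1 (chr16:36156561-36156810, plus strand): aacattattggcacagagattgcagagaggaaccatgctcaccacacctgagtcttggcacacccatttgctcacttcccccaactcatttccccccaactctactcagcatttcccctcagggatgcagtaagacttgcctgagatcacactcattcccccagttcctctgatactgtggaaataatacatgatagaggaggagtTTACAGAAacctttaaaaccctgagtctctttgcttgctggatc
Retnlg (chr16:48872358-48872607, plus strand): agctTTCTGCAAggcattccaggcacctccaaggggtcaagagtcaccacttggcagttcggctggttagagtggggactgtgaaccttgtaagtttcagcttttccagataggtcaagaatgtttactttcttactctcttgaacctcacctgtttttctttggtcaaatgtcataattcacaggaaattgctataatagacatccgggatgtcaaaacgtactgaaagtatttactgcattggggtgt
Prok2 (chr6:99726393-99726642, minus strand): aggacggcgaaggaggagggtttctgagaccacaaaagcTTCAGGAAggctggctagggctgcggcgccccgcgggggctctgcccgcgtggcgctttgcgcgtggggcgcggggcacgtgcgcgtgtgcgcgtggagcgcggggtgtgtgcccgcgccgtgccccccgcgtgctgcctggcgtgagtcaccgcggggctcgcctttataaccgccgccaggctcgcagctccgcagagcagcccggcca
These letters were found upstream of 7 of the 9 genes, S100a9 and Tarm1 having more than a single match and Cxcr2 and Csf3r having none. Among 32851 promoters of the same length, 36.9% held them, so the match is common. The letters GAGGAAGT, a form of the PU.1 site, were found upstream of 1 of the 9, S100a8, and in 2.44% of all promoters. Genes of both patterns were among those with a C/EBP match.

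The alarmins S100a8 and S100a9 form the heterodimer calprotectin, which binds zinc and calcium and signals through Tlr4. S100a9 lies on chromosome 3 from 90692632 to 90695721 and S100a8 on the same chromosome from 90668978 to 90670035 (GENCODE M21, GRCm38). S100a9 was at 5.55 CPM in Dnmt1fl/fl replicate 1, 60.5 in Dnmt1fl/fl replicate 2, 320.1 in Dnmt1KO replicate 1 and 8.35 in Dnmt1KO replicate 2. S100a8 was at 6.92 CPM in Dnmt1fl/fl replicate 1, 35.7 in Dnmt1fl/fl replicate 2, 164 in Dnmt1KO replicate 1 and 8.77 in Dnmt1KO replicate 2. Each genotype thus had a high and a low sample, and the genotypes overlapped. The mean of S100a9 was 33.0 ± 38.8 CPM (SD, n = 2) in Dnmt1fl/fl and 164 ± 220 (SD, n = 2) in Dnmt1KO macrophages, which is 2.31 on the log2 scale with a standard error of 1.69. For S100a8 the means were 21.3 ± 20.4 CPM (SD, n = 2) and 86.6 ± 110 (SD, n = 2), a log2 fold change of 2.02 (standard error 1.35). For both genes the difference between the means was smaller than the SD of the Dnmt1KO samples. That largely follows from choosing genes for a high level in Dnmt1KO replicate 1. Within a genotype, S100a9 differed 38.3-fold between the Dnmt1KO samples and 10.9-fold between the Dnmt1fl/fl samples, and S100a8 differed 18.7-fold and 5.16-fold. Per kilobase of exon, the level of S100a9 was 2.59 times that of S100a8 in Dnmt1KO replicate 1 and 2.25 times in Dnmt1fl/fl replicate 2, the samples with much of both, and 1.07 and 1.27 times in Dnmt1fl/fl replicate 1 and Dnmt1KO replicate 2.

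Stfa2l1 encodes a stefin A-like inhibitor of cysteine proteases and lies on chromosome 16 from 36156811 to 36161953. It was at 0.292 CPM in Dnmt1fl/fl replicate 1, 3.99 in Dnmt1fl/fl replicate 2, 26.1 in Dnmt1KO replicate 1 and 0.424 in Dnmt1KO replicate 2, from 6, 100, 516 and 10 counts. Its order of samples was that of the alarmins. It differed 61.5-fold between the Dnmt1KO samples (exact 95% counting interval 33.2 to 129) and 13.6-fold between the Dnmt1fl/fl samples (6.05 to 38.1). These intervals hold the folds of S100a9 and not those of S100a8, 18.7-fold and 5.16-fold. Stfa2l1 belongs to a family of close copies, but none of its 100-base transcript stretches occurred in a transcript of another gene. Of those relatives Stfa3 was measured, at 1.51, 1.32, 1.06 and 1.02 CPM in Dnmt1fl/fl replicates 1 and 2 and Dnmt1KO replicates 1 and 2. Stfa3 therefore did not share the order of Stfa2l1.

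Wfdc21, on chromosome 11 from 83746940 to 83752642, encodes a secreted whey acidic protein domain protein. It was at 0.292 and 0.718 CPM in Dnmt1fl/fl replicates 1 and 2, 4.85 in Dnmt1KO replicate 1 and 0.0847 in Dnmt1KO replicate 2, the last from 2 counts and under the floor. Its levels in the Dnmt1KO samples therefore lay on either side of both Dnmt1fl/fl samples. The ratio of the Dnmt1KO samples, 96 to 2 counts, was 57.2-fold with an exact 95% counting interval from 15.4 to 479.

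Retnlg encodes a resistin-like secreted protein and lies on chromosome 16 from 48872621 to 48874496. It was at 7.89 and 6.22 CPM in Dnmt1fl/fl replicates 1 and 2, 40.6 in Dnmt1KO replicate 1 and 5.93 in Dnmt1KO replicate 2. Here 3 samples lay close together, and Dnmt1fl/fl replicate 2, high in the alarmins, was no higher than Dnmt1fl/fl replicate 1. Dnmt1KO replicate 1 was 6.85-fold above Dnmt1KO replicate 2, while Dnmt1fl/fl replicate 2 was at 0.788 of Dnmt1fl/fl replicate 1.

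Prok2, on chromosome 6 from 99711299 to 99726392, encodes prokineticin 2, a secreted protein that attracts myeloid cells. It was at 0.438 and 0.598 CPM in Dnmt1fl/fl replicates 1 and 2, 4.04 in Dnmt1KO replicate 1 and 0.636 in Dnmt1KO replicate 2, from 9, 15, 80 and 15 counts. Both Dnmt1KO samples were above both Dnmt1fl/fl samples, but Dnmt1KO replicate 2 and Dnmt1fl/fl replicate 2 had 15 counts each.

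Lcn2 encodes lipocalin 2, which binds the iron carriers of bacteria and is stored in neutrophil granules, and lies on chromosome 2 from 32384633 to 32388252. It was at 11.7 and 9.85 CPM in Dnmt1fl/fl replicates 1 and 2, 24.7 in Dnmt1KO replicate 1 and 8.35 in Dnmt1KO replicate 2. The pattern was that of Retnlg at a smaller size, with 2.96-fold between the Dnmt1KO samples and Dnmt1fl/fl replicate 2 at 0.842 of Dnmt1fl/fl replicate 1.

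Among the receptors, Cxcr2, the receptor for the chemokines Cxcl1, Cxcl2, Cxcl3 and Cxcl5, lies on chromosome 1 from 74153989 to 74161246. It was at 2.63 and 12.6 CPM in Dnmt1fl/fl replicates 1 and 2, 35.8 in Dnmt1KO replicate 1 and 3.05 in Dnmt1KO replicate 2. The order was that of the alarmins, with 11.7-fold between the Dnmt1KO and 4.77-fold between the Dnmt1fl/fl samples.

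Tarm1, on chromosome 7 from 3486500 to 3502624, encodes an activating receptor of myeloid cells that signals through the Fc receptor gamma chain. It was at 0.0487 and 0.837 CPM in Dnmt1fl/fl replicates 1 and 2, 3.74 in Dnmt1KO replicate 1 and 0.381 in Dnmt1KO replicate 2, from 1, 21, 74 and 9 counts. The Dnmt1fl/fl samples again differed, 17.2-fold with an exact 95% counting interval from 2.76 to 711, because the lower of them rests on 1 count.

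Csf3r, the G-CSF receptor, on chromosome 4 from 126024550 to 126044440, differed from the other 9. It was at 158 and 137 CPM in Dnmt1fl/fl replicates 1 and 2, 169 in Dnmt1KO replicate 1 and 159 in Dnmt1KO replicate 2. The 4 samples lay within a narrow range, the log2 fold change was 0.15 (standard error 0.22), and the top place of Dnmt1KO replicate 1 was a lead of 1.06-fold. Per kilobase of exon, Csf3r had the highest level of the 10 genes in Dnmt1fl/fl replicate 1 and Dnmt1KO replicate 2, 43.9 CPM in each, and S100a9 had the highest in Dnmt1fl/fl replicate 2 and Dnmt1KO replicate 1, 116 and 613 CPM.

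**Figure D1:**
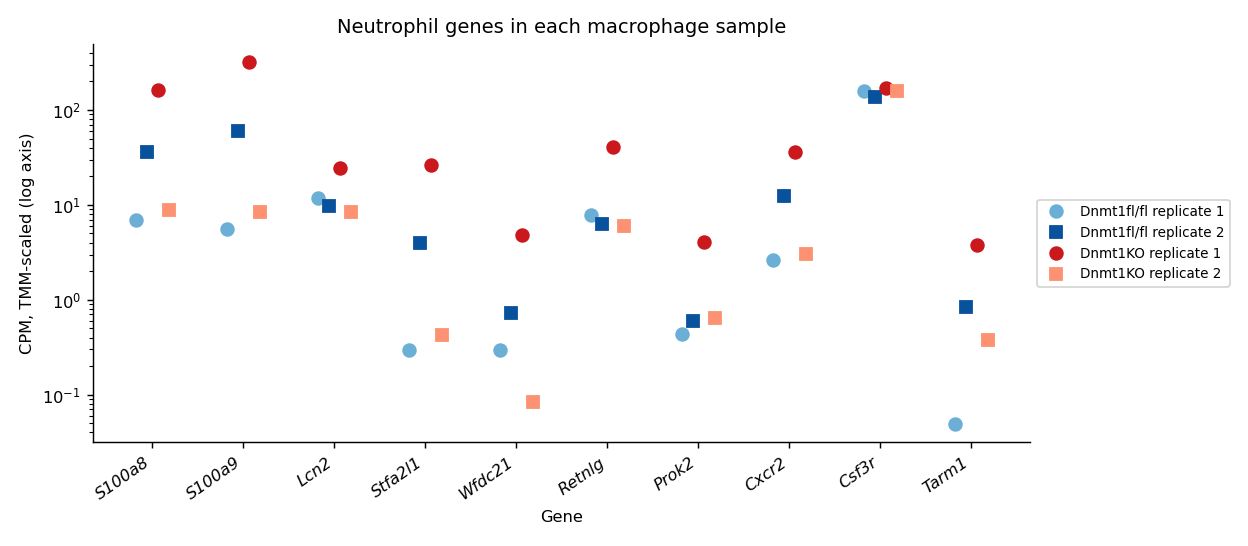
Level of each of the 10 genes in each sample (y axis: TMM-scaled CPM on a log axis; x axis: gene; each point is 1 sample, with no mean or error bar). Dnmt1KO replicate 1 is the top point for all 10 genes, Dnmt1fl/fl replicate 2 is second for 6 of them, and the 4 points of Csf3r lie together.

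All 10 genes passed the filter on low counts and all 10 were highest in Dnmt1KO replicate 1, where 38.8% of all tested genes were highest, a count that the choice of the genes itself produced. Dnmt1KO replicate 1 led the next sample at least 2-fold in 9 genes, all but Csf3r, against 1.18% of tested genes. This lead is in the level that chose the genes, so nothing is read from it. A measure that the choice did not use is the order of the other 3 samples. Dnmt1KO replicate 2 lay between the 2 Dnmt1fl/fl samples in 5 genes (S100a8, S100a9, Stfa2l1, Cxcr2 and Tarm1), as in 35.4% of tested genes, below both in 3 (Lcn2, Wfdc21 and Retnlg) and above both in 2 (Prok2 and Csf3r). Dnmt1fl/fl replicate 2 was above Dnmt1fl/fl replicate 1 in 7 genes, against 50.1% of tested genes, and in 6 of them at least 2-fold, against 3.44%. In those 6 (S100a8, S100a9, Stfa2l1, Wfdc21, Cxcr2 and Tarm1) the samples of both genotypes differed at least 2-fold, high in Dnmt1KO replicate 1 and in Dnmt1fl/fl replicate 2. This second count uses the level in Dnmt1KO replicate 1 that chose the genes, so nothing is read from it beside the 1.42% of tested genes. The Wfdc21 fold between the Dnmt1fl/fl samples, 2.45, came from 18 against 6 counts. Its exact 95% counting interval, 0.934 to 7.55, includes 1. Summed over the 9 genes without Csf3r, the level was 35.8 CPM in Dnmt1fl/fl replicate 1, 131 in Dnmt1fl/fl replicate 2, 624 in Dnmt1KO replicate 1 and 36.0 in Dnmt1KO replicate 2. The lower sample of each genotype thus had nearly the same summed level, and the higher samples differed from it and from each other. These near-equal sums joined opposite differences. The alarmins summed to 12.5 CPM in Dnmt1fl/fl replicate 1 and 17.1 in Dnmt1KO replicate 2, and the 5 secreted proteins to 20.6 and 15.4. As a share of all counts before scaling, these 9 genes took 0.00363% (95% Wilson interval 0.00338 to 0.00390) in Dnmt1fl/fl replicate 1, 0.0136% (0.0131 to 0.0140) in Dnmt1fl/fl replicate 2, 0.0568% (0.0558 to 0.0578) in Dnmt1KO replicate 1 and 0.00375% (0.00351 to 0.00402) in Dnmt1KO replicate 2. The intervals of the 2 low samples overlapped, and they cover counting error only.

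**Figure D2:**
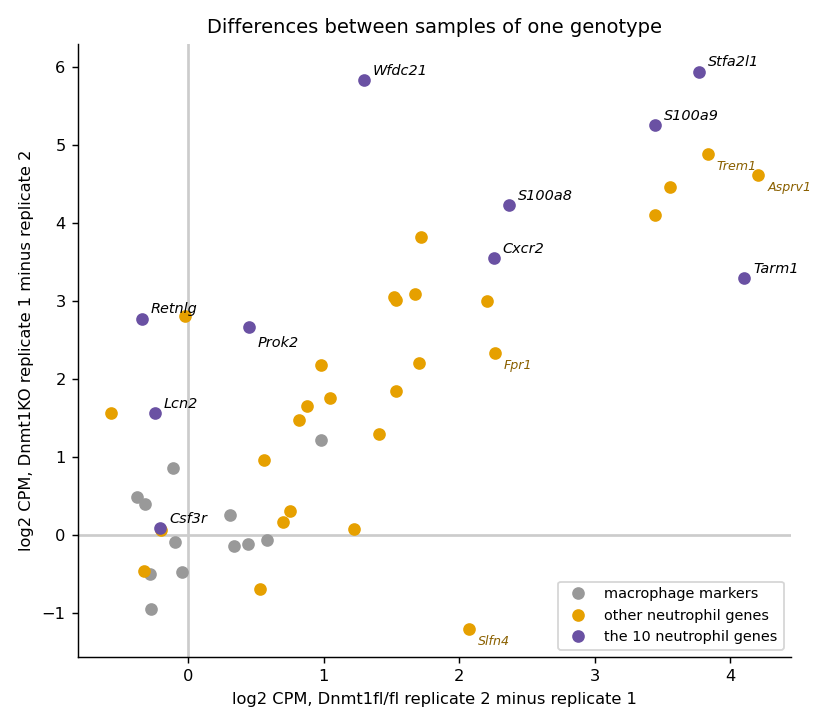
Differences between the 2 samples of a genotype (x axis: log2 CPM of Dnmt1fl/fl replicate 2 minus replicate 1; y axis: log2 CPM of Dnmt1KO replicate 1 minus replicate 2; each point is 1 gene). S100a8, S100a9, Stfa2l1, Wfdc21, Cxcr2 and Tarm1 lie more than 1 above 0 on both axes, Retnlg, Prok2 and Lcn2 lie high on the y axis only, and Csf3r lies among the macrophage markers.

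The genotype comparison rested on Dnmt1KO replicate 1 for these genes. With all 4 samples, 8 of the 10 had a log2 fold change of at least 1 in Dnmt1KO, against 0.646% of tested genes. The exceptions were Lcn2 at 0.62 (standard error 0.52) and Csf3r. This count uses the level in Dnmt1KO replicate 1 that chose the genes, so nothing is read from it. The count was 6 with limma-voom, where Wfdc21 was at 0.39 and Cxcr2 at 0.72, and 6 with a replicate block, where Cxcr2 was at 0.85. In 9 of the 10 genes the difference between the genotype means was smaller than the SD of the Dnmt1KO samples, Csf3r being the exception. That largely follows from choosing genes for a high level in Dnmt1KO replicate 1, so nothing is read from it. Over all genes, edgeR's quasi-likelihood test called 0 of 12542 (0%) at an adjusted p under 0.05 and 35 (0.279%) at an unadjusted p under 0.05, 14 (0.112%) as higher in Dnmt1KO, and DESeq2 called 1 at an adjusted p under 0.05. Both Dnmt1KO samples were above both controls in 2 of the 10 genes, Prok2 and Csf3r, against 8.14% of tested genes. Without Dnmt1KO replicate 1, a comparison that does not use the sample that chose the genes, 8 of the 10 were lower in Dnmt1KO replicate 2 than in Dnmt1fl/fl macrophages, where 50.4% of the 12912 genes tested were lower. S100a9 had a log2 difference of -1.99 (standard error 1.01), S100a8 of -1.29 (standard error 0.72), Stfa2l1 of -2.35 (standard error 1.23), Wfdc21 of -2.53 (standard error 1.23) and Cxcr2 of -1.33 (standard error 0.73). With limma-voom on the same 3 samples, S100a9 was at -1.22 and Stfa2l1 at -1.48. The edgeR differences of Retnlg, Lcn2, Tarm1, Prok2 and Csf3r ran from -0.37 in Lcn2 to 0.28 in Prok2. None of the 10 passed edgeR's test in that comparison, with an adjusted p of 1.00 for each, 0 passed an unadjusted p under 0.05, and 0 passed an adjusted p under 0.05 with DESeq2 or limma-voom. That test has 1 sample in the Dnmt1KO arm, which is assumed to vary like the Dnmt1fl/fl samples, and over all genes it called 0% at an adjusted and 2.73% at an unadjusted p under 0.05, 1.57% as lower. Without Dnmt1fl/fl replicate 2 in place of it, the log2 fold change of S100a9 was 4.90 and that of Stfa2l1 5.48, values that keep the sample on which the genes were chosen and are given with no test. With both of these samples left out, S100a8 was 1.27-fold and Cxcr2 1.16-fold higher in Dnmt1KO replicate 2 than in Dnmt1fl/fl replicate 1. Between the same samples S100a9 was higher by 0.59 on the log2 scale. Stfa2l1 and Prok2 were each 1.45-fold higher, from 10 against 6 and 15 against 9 counts. Csf3r was at 1.00, Retnlg at 0.752 and Lcn2 at 0.714 of the Dnmt1fl/fl level. The widest ratios rested on few counts: Tarm1 was 7.83-fold higher, from 9 counts against 1, with an exact 95% counting interval from 1.08 to 343, and Wfdc21 was at 0.290, from 2 counts against 6, with an interval from 0.0286 to 1.62. These last values compare single samples and have no replicate check. The replicate block, a term for the replicate number, moved the log2 fold change of Wfdc21 from 2.25 to 0.96 and that of S100a9 from 2.31 to 1.47, with 0 genes called over the table.

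**Figure D3:**
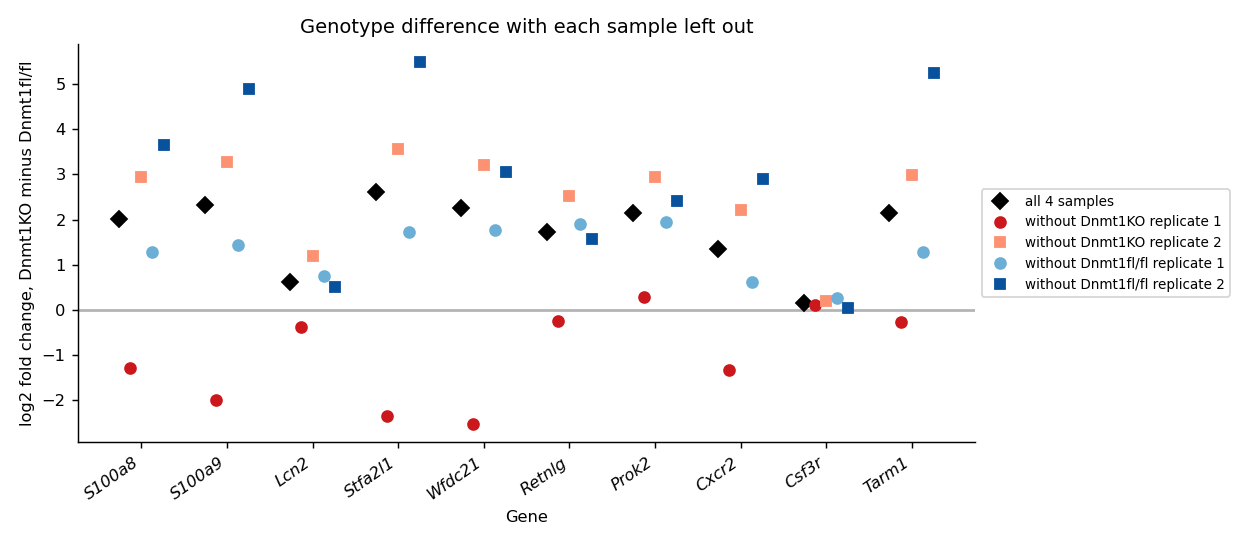
Genotype difference of each gene with all samples and with each sample left out (y axis: log2 fold change, Dnmt1KO minus Dnmt1fl/fl; x axis: gene; each point is 1 fit, with no error bar). Without Dnmt1KO replicate 1 the points of 8 genes fall below 0, and without Dnmt1fl/fl replicate 2 S100a9 rises to 4.90.

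The other neutrophil genes were listed by their roles, with 27 of the 46 symbols tested. The choice of the 10 did not use them, but the lists were made with earlier results of these data known. The shares below are therefore descriptions. In 18 of the 27, or 66.7%, the highest sample was Dnmt1KO replicate 1, against 38.8% of all tested genes. In 14 of them the samples of both genotypes differed at least 2-fold in the direction of the alarmins, against 1.42%. Their median log2 fold change between genotypes was 0.50, that of all tested genes was 0.0046, and without Dnmt1KO replicate 1 their median was -0.75. With Dnmt1fl/fl replicate 2 left out as well, their median difference was -0.036. None of the 27 had an adjusted p under 0.05 from edgeR with all 4 samples, and 1, Slfn4, had an unadjusted p under 0.05. Leaving out 1 sample leaves 1 sample in an arm, so only the median is given for the listed genes. Their median log2 fold change was 0.039 without Dnmt1fl/fl replicate 1, 1.13 without Dnmt1fl/fl replicate 2 and 1.10 without Dnmt1KO replicate 2.

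Of 17 granule genes, 8 were tested. Pglyrp1, a peptidoglycan-binding granule protein, was at 2.34 and 6.70 CPM in Dnmt1fl/fl replicates 1 and 2, 22.5 in Dnmt1KO replicate 1 and 2.71 in Dnmt1KO replicate 2. Mmp9, the gelatinase of the tertiary granules, was at 33.4, 66.0, 145 and 31.9 CPM in these samples, again highest in Dnmt1KO replicate 1 and second in Dnmt1fl/fl replicate 2. Ltf, lactoferrin of the specific granules, was at 0.487, 0.478, 2.98 and 0.424 CPM, the pattern of Retnlg and Prok2, and so was Mmp8, neutrophil collagenase, at 12.9, 8.69, 26.3 and 8.90 CPM. Padi4, which citrullinates histones, ran the other way, with 221 and 319 CPM in the Dnmt1fl/fl samples and 134 and 216 in the Dnmt1KO samples. Granule genes thus showed both patterns of the 10 genes, and not all of them followed either.

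Among the surface receptors 10 of 15 were tested. Ly6g, the antigen by which mouse neutrophils are usually sorted, did not pass the filter, with 1 and 8 counts in Dnmt1fl/fl replicates 1 and 2, 79 in Dnmt1KO replicate 1 and 1 in Dnmt1KO replicate 2. Il1r2, the decoy receptor for interleukin 1, was at 1.61, 5.30, 22.1 and 1.57 CPM in the same order of samples. Another set of receptors was about as high in Dnmt1fl/fl replicate 2 as in Dnmt1KO replicate 1. Trem1, an amplifier of myeloid inflammation, was at 1.27 and 18.1 CPM in the Dnmt1fl/fl and 18.8 and 0.636 CPM in the Dnmt1KO samples, and Fpr1, a receptor for formylated bacterial peptides, was at 5.75 and 27.6, and 21.4 and 4.24 CPM. The high samples of the genotypes were 1.04-fold apart for Trem1, whose genotype means were 9.66 CPM in Dnmt1fl/fl and 9.71 CPM in Dnmt1KO. The inflammatory genes Il1b and Acod1, which macrophages also express, had that second pattern, Il1b at 8.18 and 34.7 CPM in the Dnmt1fl/fl and 33.5 and 7.46 CPM in the Dnmt1KO samples. The alarmins differed from it, since S100a9 was 5.29-fold and S100a8 4.60-fold higher in Dnmt1KO replicate 1 than in Dnmt1fl/fl replicate 2.

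Of 14 symbols of cytosolic and secreted genes of mature neutrophils, Il36g and Il1f9 being the same gene, 9 were tested. Asprv1, an aspartic protease, was at 0.828 and 15.3 CPM in Dnmt1fl/fl replicates 1 and 2, and at 31.3 and 1.27 CPM in Dnmt1KO replicates 1 and 2. Il1f9, an interleukin 1 family cytokine, was at 0.633, 6.90, 22.6 and 1.31 CPM in the same samples. Slfn4, an interferon-responsive schlafen gene, was at 45.6 and 192 CPM in the Dnmt1fl/fl and 18.4 and 42.5 CPM in the Dnmt1KO samples, a log2 difference of -1.96 with a standard error of 0.75 and an adjusted p of 1.00 in edgeR's test. It was high in Dnmt1fl/fl replicate 2 and low in Dnmt1KO replicate 1, so it did not share the pattern of the 10 genes.

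The partners of the 10 genes were also counted. Of 12 ligands, receptors and adaptors, 8 were tested and 0 had an unadjusted p under 0.05, where 0.279% of all tested genes did, so that a count of 0 among so few genes says little. Cxcl2, a ligand of Cxcr2, was at 32.6 CPM in Dnmt1fl/fl replicate 2 and at 38.7 and 9.24 CPM in the Dnmt1KO samples, with Dnmt1fl/fl replicate 1 between Dnmt1KO replicate 2 and Dnmt1fl/fl replicate 2. Tlr4, a receptor for the alarmins, was at 115 and 141, and 96.2 and 128 CPM. Fcer1g, the gamma chain that Tarm1 signals through, was at 447 and 477, and 790 and 451 CPM, with Dnmt1KO replicate 1 standing above 3 samples that lay close together. Of 8 transcription factors of granulocyte development, 7 were tested with 0 at an unadjusted p under 0.05, beside the same 0.279%, and Cebpe, required for the specific granules, was at 2.78 and 6.18 CPM in the Dnmt1fl/fl and 8.89 and 2.46 CPM in the Dnmt1KO samples.

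The other S100 genes shared part of the order. All 7 that were tested were highest in Dnmt1KO replicate 1, and 6 were second in Dnmt1fl/fl replicate 2, against 23.5% of all tested genes. The fold was smaller than for the alarmins: S100a6 was at 293 and 457 CPM in the Dnmt1fl/fl and 932 and 292 CPM in the Dnmt1KO samples, and S100a4 at 414 and 694, and 1136 and 413 CPM. Macrophages express these genes broadly, and 0 of the 7 had an unadjusted p under 0.05 between genotypes, against 0.279% of all tested genes.

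Markers of other cells moved with the same samples, and their part in the levels of the 10 genes was not tested. All 10 B cell markers were lowest in Dnmt1KO replicate 1, with a sum of 134 CPM there and 335 to 554 CPM in the other 3 samples. All 10 markers of resident peritoneal macrophages were measured and their sum was 832 CPM in Dnmt1KO replicate 1 and 1263 to 1559 CPM in the others. All 9 mesothelial and fibroblast markers were measured, and their sum was highest in Dnmt1KO replicate 1 at 136 CPM, followed by 71.0 CPM in Dnmt1fl/fl replicate 2, with 50.1 and 33.4 CPM in Dnmt1fl/fl replicate 1 and Dnmt1KO replicate 2. The 7 dendritic cell markers summed to 29.7 CPM in Dnmt1KO replicate 1 and to 54.6 to 70.5 CPM in the others. The 7 markers of recruited monocytes summed to 7201 to 7518 CPM in all 4 samples, most of it from Fn1, and did not move as 1 group. Ly6c2, at 7.80 and 18.7 CPM in the Dnmt1fl/fl and 23.3 and 7.46 CPM in the Dnmt1KO samples, and Vcan, 2.16-fold apart between the Dnmt1fl/fl and 3.44-fold between the Dnmt1KO samples, were high in the same samples as the alarmins and at least 2-fold apart in both genotypes. Chil3 had the same high samples at 273 and 475, and 493 and 263 CPM, while F13a1 and Ccr2 were lowest in Dnmt1KO replicate 1. The 12 T and NK cell markers summed to 51.4 to 85.8 CPM. Of 8 eosinophil markers 4 were in the table, without Epx and Prg2, and these summed to 26.3 to 39.9 CPM, while 7 of 8 mast cell markers summed to at least 9.32 CPM in every sample. Platelet markers were represented by 3 of 5 genes with 85.5 to 161 CPM, nearly all from Pf4, and erythroid markers by Hbb-bs alone at under 1 CPM in every sample. Both Dnmt1KO samples were below both controls, as in 8.56% of tested genes, in 3 of the 10 resident macrophage markers (Fcna, Timd4 and Icam2), in 2 T and NK cell markers (Cd4 and Cd5), in 2 mast cell markers (Cma1 and Cpa3) and in 1 of the 12 macrophage markers. The last was Lyz2, in whose locus the LysM promoter lies, at 29531 and 28588 CPM in the Dnmt1fl/fl and 11351 and 15745 CPM in the Dnmt1KO samples.

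**Figure D4:**
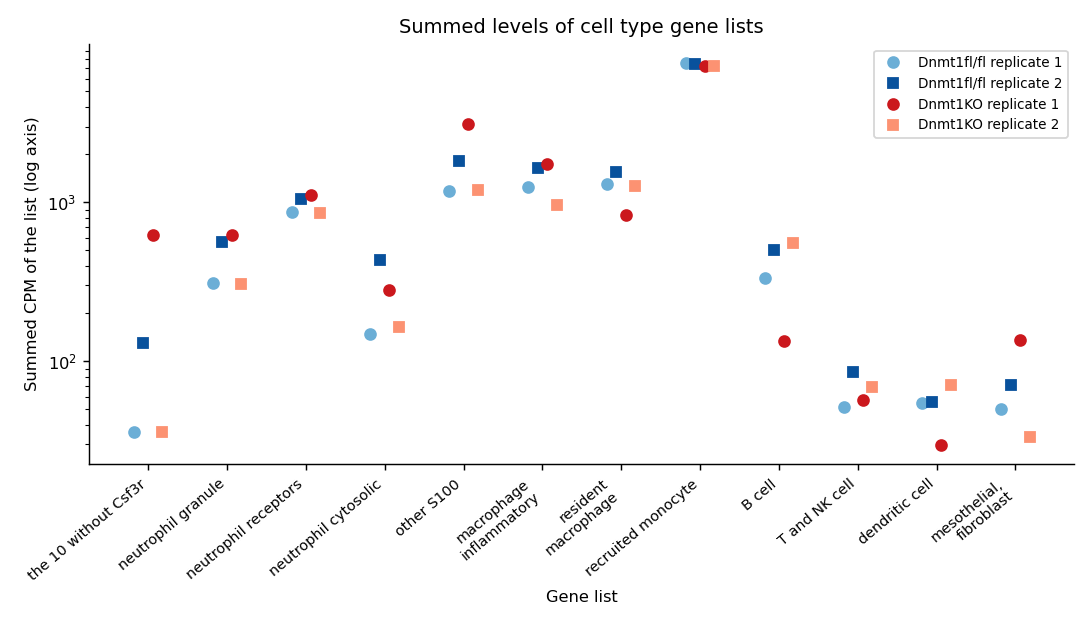
Summed level of each gene list in each sample (y axis: summed CPM on a log axis; x axis: gene list; each point is 1 sample, with no mean or error bar). The 9 neutrophil genes without Csf3r run from 35.8 to 624 CPM, B cell markers are lowest in Dnmt1KO replicate 1, and the sum of the recruited monocyte markers, most of it Fn1, runs from 7201 to 7518 CPM.

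The genes whose profile was most like the median of the 10 were found by the root mean square distance of their centred log2(CPM + 1) over 4 samples, among 11531 candidates with a mean of at least 1 CPM. The nearest 10 were Lox, Mirt2, Arg1, F11r, Spp1, Pglyrp1, Pla1a, Mif, Clu and Mmp9, at distances from 0.130 to 0.248. All members but Wfdc21 (0.098) lay farther from that median, among them S100a9 at 1.34, S100a8 at 0.816 and Stfa2l1 at 0.804. Arg1, arginase 1 of alternatively activated macrophages, was at 1208 and 1830 CPM in the Dnmt1fl/fl and 4849 and 1132 CPM in the Dnmt1KO samples. Spp1, osteopontin, was at 2740 and 3770, and 10349 and 2127 CPM. Of these 10 genes, Pglyrp1 and Mmp9 are on the neutrophil lists, and the other 8 are on none of them.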

How the data were processed

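RNA from 4 peritoneal macrophage samples was sequenced as read pairs. The authors deposited estimated counts for each gene, without normalization, made per the methods and the submitters' processing notes with HISAT2 2.0.5 on mm10 and featureCounts 1.5.0-p3. How fractional counts arose is not stated. A shorter deposited table of 2749 genes lists 4 of the 10 genes and was not tested. The library kit is not labelled as stranded.

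Counts were rounded, filtered with filterByExpr, scaled by TMM and tested with edgeR 4.0.16 (R 4.3.3; quasi-likelihood, two-sided, Benjamini-Hochberg). Standard errors came from the quasi-likelihood statistic. The fits were also run on simulated counts, and those results are not given here. Replicate numbers come from the titles and no pairing is named. The smallest p that an exact permutation test (two-sided) allows here, 2 against 2, is 0.333. Where nothing says that samples came from separate animals, p-values measure only the spread between these samples.

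The genes and lists were chosen with earlier results of these data known. Named are the 10 genes, the listed marker genes, Dnmt1 and the 10 genes with the nearest profile. Other settings tried were limma-voom (limma 3.58.1), DESeq2 1.42.0, different scalings and filters, a replicate block, pseudocounts of 0.5 and 2 and leaving out samples. Positions are from GENCODE M21 (GRCm38, the same build), promoters from RefSeq. Intervals were computed with SciPy 1.17.1.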

Additional observations from a re-analysis of the deposited data

How the results depend on the processing

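The highest sample was recomputed under other scalings and the order of the remaining samples was not. All 10 genes were highest in Dnmt1KO replicate 1 with TMM or DESeq2 scaling, and 9 with scaling by total count only, Csf3r being the exception. The number of genes called over the table at an adjusted p under 0.05 was 0 with edgeR, 1 with DESeq2 (Pagr1a), 0 to 1061 with 1 sample left out (1061 without Dnmt1KO replicate 2), and 3 with the crossed pairing, added after seeing that deviations of same-numbered samples correlated at -0.41 across genes. With the replicate block, 0 genes were called, 1 other neutrophil gene passed an unadjusted p under 0.05, and their median log2 fold change was 0.30. That median was 0.50 in the fit without the block and ran from -0.75 (without Dnmt1KO replicate 1) to 1.13 (without Dnmt1fl/fl replicate 2) with 1 sample left out. Other neutrophil genes at an unadjusted p under 0.05 numbered 1 with edgeR, 0 with limma-voom and 3 to 18 with 1 sample left out, 18 without Dnmt1KO replicate 2. The fit without Dnmt1KO replicate 2 also called the most genes over the whole table. Each fit with 1 sample left out has 1 sample in an arm, so nothing is read from its counts of neutrophil genes. The difference of Tarm1 in Dnmt1KO replicate 2, -0.28 without Dnmt1KO replicate 1, was 0.57 with limma-voom. The causes were not tested. Outside Dnmt1KO replicate 1, Tarm1 and Wfdc21 had 1 to 21 counts, which limits their ratios.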
